A study of Mus musculus with 9 samples.

Results

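The transcripts described here are those of 10 core circadian clock genes, the rows of the deposited expression table named Clock, Arntl, Npas2, Per1, Per2, Per3, Cry1, Cry2, Nr1d1 and Dbp, out of 49585 genes in the table. All 10 were found by symbol, and all 10 passed the low-count filter in both kinds of read used below. RNA sequencing covered 9 libraries of brain tissue from male wild-type C57BL/6J mice of 8 to 15 weeks, 3 in each of 3 groups. CTRL mice moved freely for 120 min without sevoflurane, 0.7 MAC mice breathed 0.7 MAC sevoflurane for 120 min, and 2.0 MAC mice breathed 2.0 MAC for 30 min and then 0.7 MAC for 90 min. MAC stands for minimum alveolar concentration, by which inhaled anesthetics are dosed. Sevoflurane was delivered in 100% oxygen, and the sources used here do not state what CTRL mice breathed. The 2.0 MAC group was therefore at 0.7 MAC for most of its exposure, and no group shows 2.0 MAC alone. The study's methods also describe intubation under sevoflurane and a heating pad, and do not state whether CTRL mice were handled in this way. If they were not, sevoflurane and this handling cannot be told apart in comparisons with CTRL. The sources used here state neither the time of day at which tissue was taken, on which levels of clock transcripts depend, nor that the libraries of a group are separate animals, so p-values measure only the spread between these libraries, which may be technical.

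The labels name the tissue as hypothalamus, and the study's methods describe what remains of the brain after cortex, cerebellum and olfactory bulb are removed. The labels' extraction text instead names whole brain and neurospheres, so which tissue was sequenced is not settled by these sources. Of 14 hypothalamic marker genes, 12 passed the filter, and their summed level was 64.5 to 81.5 CPM (read counts scaled to a common library total) in CTRL libraries, 53.2 to 66.6 CPM in 0.7 MAC libraries and 99.6 to 107.0 CPM in 2.0 MAC libraries. Agrp and Hmx2 were the 2 that did not pass, with 17 reads and 1 read over all libraries. Of 13 markers of the suprachiasmatic nucleus, the hypothalamic nucleus that holds the master clock, 10 passed, and Nms, Prok2 and Six6 did not, at 8, 35 and 17 reads. Markers of other regions were abundant: 11 cortex markers summed to 669.5 to 1207.1 CPM in CTRL libraries, 1079.7 to 1335.5 CPM in 0.7 MAC libraries and 363.9 to 462.6 CPM in 2.0 MAC libraries. The 4 cerebellar markers, of which 2 were higher in 0.7 MAC than in CTRL libraries, summed to 505.1 and 207.7 CPM in 0.7 MAC replicates 2 and 1, 254.8 CPM in 2.0 MAC replicate 3, and 16.4 to 60.1 CPM in the other 6 libraries. Gh, the pituitary growth hormone gene, had 0 reads in CTRL, 98 in 0.7 MAC and 46 in 2.0 MAC libraries, and 2 blood markers summed to 2.05 to 5.57 CPM in CTRL, 3.22 to 23.7 CPM in 0.7 MAC and 2.78 to 17.1 CPM in 2.0 MAC libraries, and their part in the values of the clock genes was not tested. Values of the clock genes are therefore levels in tissue of several brain regions, and in such bulk samples fewer cells of a type and less RNA per cell cannot be told apart.

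The clock is a feedback loop of transcription. In mammals the proteins CLOCK or NPAS2 pair with BMAL1, the product of Arntl, and switch on genes that carry an E-box in their promoter. Among these are the Per and Cry genes, whose proteins return to the nucleus and repress the activator pair, and Nr1d1, whose protein REV-ERB alpha represses Arntl in a second loop. Dbp is a clock output, a transcription factor whose own transcript is switched on by the activators and which acts through D-boxes. Per1 and Per2 also answer signals from outside the clock, being induced by neuronal activity through the cAMP response element binding protein CREB and by glucocorticoids.

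RefSeq promoter windows, of 250 bases before and 50 after an annotated start site (GRCm38.p6), were found for 9 of the 10 genes, 13 windows in all. No window was found for Per2, so its promoter was not searched. The letters CACGTG, the E-box, were searched on both strands together with the E-box variant CACGTT, the D-box TTANGTAA, the cAMP response element TGACGTCA and the core letters of ROR elements, AGGTCA, none of which overlapped another in these windows. CACGTG was in 1 window of Per1 and in that of Cry1 (7.15% of all 32851 promoter windows hold it), CACGTT in those of Cry1, Cry2 and Nr1d1 (4.68% of all), and TTANGTAA at 2 places in that of Per3 (2.32% of all). AGGTCA was in 1 window each of Per1, Clock and Arntl (16.3% of all). TGACGTCA was in none of the 13 (1.79% of all), and none of the 5 motifs was in the windows of Npas2 and Dbp. The Per1 window with matches and the window of Npas2 are shown because these transcripts changed in different comparisons below. The other Per1 window, chr11:69099902-69100201, holds no match. Capitals mark CACGTG and TGACCT, the reverse complement of AGGTCA, in the Per1 window, chr11:69098699-69098998 on the plus strand, and the Npas2 window, chr1:39194022-39194321 on the plus strand, holds no match:
Per1: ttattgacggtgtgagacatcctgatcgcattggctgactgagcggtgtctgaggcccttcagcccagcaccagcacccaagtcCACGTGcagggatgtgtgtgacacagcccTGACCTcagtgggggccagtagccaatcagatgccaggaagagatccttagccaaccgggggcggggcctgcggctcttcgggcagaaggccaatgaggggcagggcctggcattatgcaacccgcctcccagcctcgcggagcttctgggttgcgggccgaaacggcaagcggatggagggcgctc
Npas2: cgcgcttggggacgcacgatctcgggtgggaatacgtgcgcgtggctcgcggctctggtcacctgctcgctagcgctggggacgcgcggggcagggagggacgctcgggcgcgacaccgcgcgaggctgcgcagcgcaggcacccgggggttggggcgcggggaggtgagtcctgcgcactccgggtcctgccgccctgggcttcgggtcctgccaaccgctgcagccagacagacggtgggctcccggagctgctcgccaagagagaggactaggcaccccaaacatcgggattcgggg
A match is a description of these letters and not a measured binding site.

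The table gives 2 kinds of read for each gene. Exon-based reads stand mostly for spliced RNA and intron reads mostly for unspliced RNA. A library held 5321491 to 7178568 exon-based reads and 8511680 to 12026831 intron reads, so that intron reads were 59.6% to 60.9% of gene reads in CTRL libraries, 60.0% to 62.0% in 0.7 MAC libraries and 58.9% to 59.1% in 2.0 MAC libraries. The members differed widely in this respect. Introns held 89.8% of the reads of Npas2 and 84.5% of those of Arntl, but 26.8% of those of Per1, 16% of those of Dbp and 15.7% of those of Nr1d1.

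Per length of exon, Nr1d1 was the most abundant of the 10, with a median of 11.1 RPKM, a read count scaled by exon length and library depth, over the 9 libraries and a range of 8.00 to 12.3 RPKM. Dbp followed at a median of 8.70 RPKM (7.12 to 12.2), Cry2 at 7.41 RPKM (6.93 to 8.53), Per1 at 6.10 RPKM (5.09 to 7.18) and Clock at 5.24 RPKM (4.59 to 5.61). Each of these overlapped its neighbour in the order. The other members formed a lower set, with Per3 at a median of 3.22 RPKM (2.59 to 3.55), Per2 at 2.35 RPKM (1.92 to 2.73), Arntl at 2.25 RPKM (1.60 to 2.72), Npas2 at 2.20 RPKM (1.30 to 2.52) and Cry1 at 2.18 RPKM (1.85 to 2.62). Only the step between Clock and Per3 had no overlap of library values. The RPKM of Per3 counts reads that are not its own, because Per3 lies within the span of Camta1 on the same strand and 30.1% of its 5246 exon reads were unique to one gene. RPKM values followed total exon reads in all members, which include reads shared with other genes. Of these reads, 79.8% were unique for Cry2, 80.3% for Dbp and 92.5% for Nr1d1. The order given here therefore depends partly on shared reads.

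**Figure D1:**
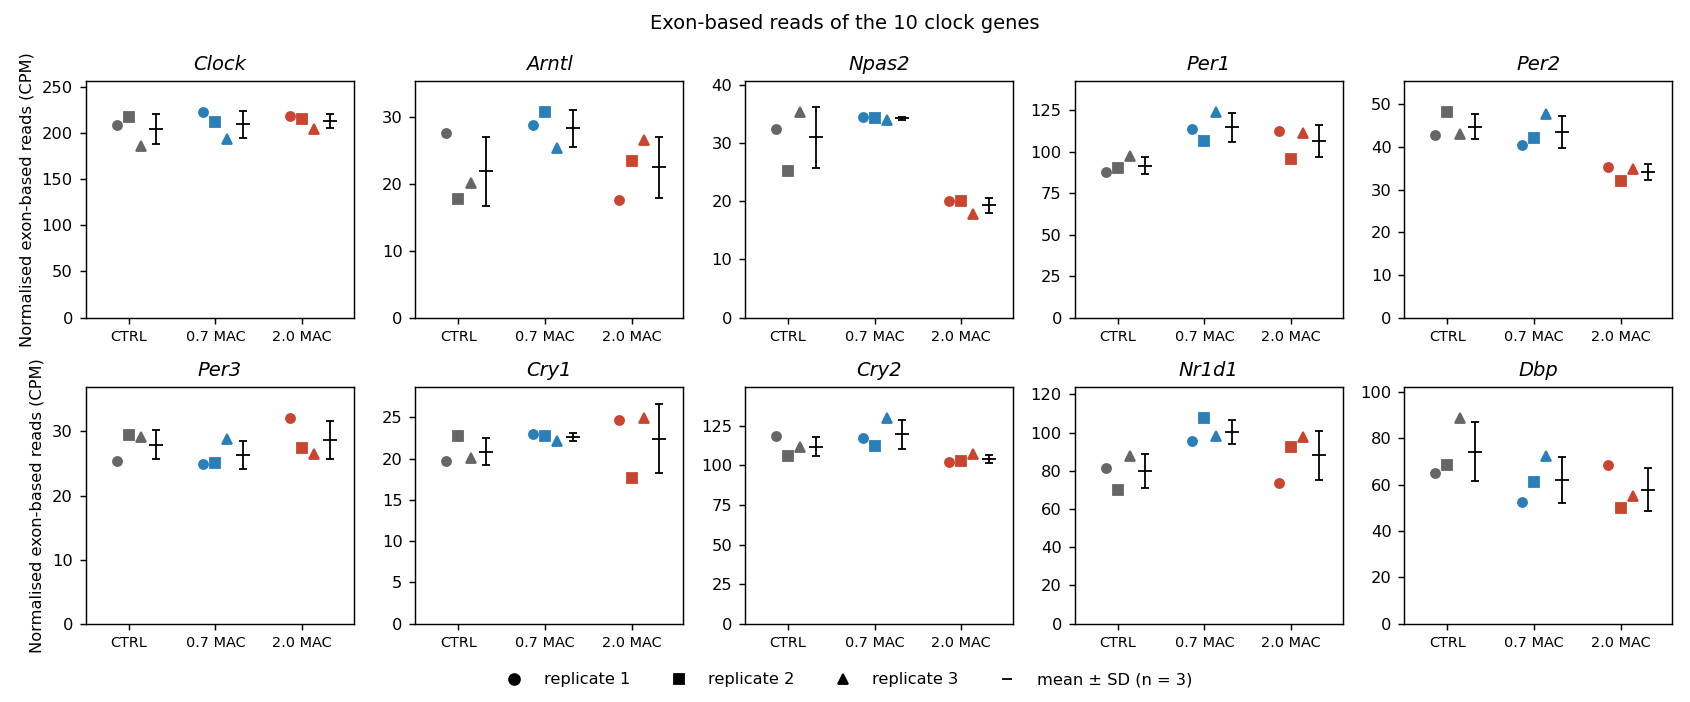
Normalised exon-based reads of the 10 clock genes, in CPM on axes that start at 0, for the CTRL, 0.7 MAC and 2.0 MAC libraries, each point 1 library and the bar beside it the mean ± SD (n = 3). Npas2 lay at 25.2 to 35.3 CPM in CTRL, 33.9 to 34.4 CPM in 0.7 MAC and 17.7 to 20.0 CPM in 2.0 MAC libraries, and Clock overlapped in all 3 groups.

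The first question is which clock transcripts differed after a period at the high concentration. Between 2.0 MAC and 0.7 MAC, 2 of the 10 genes were lower in 2.0 MAC libraries at an adjusted p under 0.05, Npas2 and Per2, beside 8.73% of all 14140 tested genes, and 0 were higher, beside 5.98% of all. Against CTRL, Npas2 and Per2 were again the 2 lower genes, in 2.0 MAC, beside 6.42% of all tested genes, and 0 were higher, beside 3.36% of all. Both comparisons use the same 2.0 MAC libraries. The split of all genes moved with the processing: 845 higher and 1235 lower genes between 2.0 MAC and 0.7 MAC became 1128 and 1029 with upper-quartile scaling and 1087 and 1077 with library totals, and 475 higher and 908 lower genes between 2.0 MAC and CTRL became 640 and 792 with library totals. With limma on deposited RPKM values, which changes the test, the scaling and the reads counted together, the splits were 1705 and 723, and 810 and 494. The median of all genes lay between -0.021 and 0.095 in these fits over the 3 comparisons, and Npas2 was called lower in each of them in both comparisons of 2.0 MAC. Between 0.7 MAC and CTRL, Per1 was the 1 higher gene, beside 0.884% of all tested genes, and 0 were lower, beside 0.743% of all. At the study's added threshold of a 2-fold change 0 of the 10 were called in any comparison, where 1.44% of all tested genes were called between 2.0 MAC and 0.7 MAC, 0.325% between 0.7 MAC and CTRL and 1.36% between 2.0 MAC and CTRL. The counts at an adjusted p under 0.05 were also 2, 1 and 2 with DESeq2, and an unadjusted edgeR p under 0.05 was reached by 3 members between 2.0 MAC and 0.7 MAC, 3 between 0.7 MAC and CTRL and 4 between 2.0 MAC and CTRL. The median log2 fold change of the 10 genes was -0.14 between 2.0 MAC and 0.7 MAC, 0.11 between 0.7 MAC and CTRL and 0.04 between 2.0 MAC and CTRL, beside a median of 0.00 over all tested genes in each. Library values did not overlap for 3 of the 10 genes between 2.0 MAC and 0.7 MAC (Npas2, Per2 and Cry2, all lower in 2.0 MAC, beside 31.3% of all tested genes), for 2 between 0.7 MAC and CTRL (Per1 and Nr1d1, both higher in 0.7 MAC, beside 18% of all) and for 2 between 2.0 MAC and CTRL (Npas2 and Per2, both lower in 2.0 MAC, beside 28.3% of all).

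**Figure D2:**
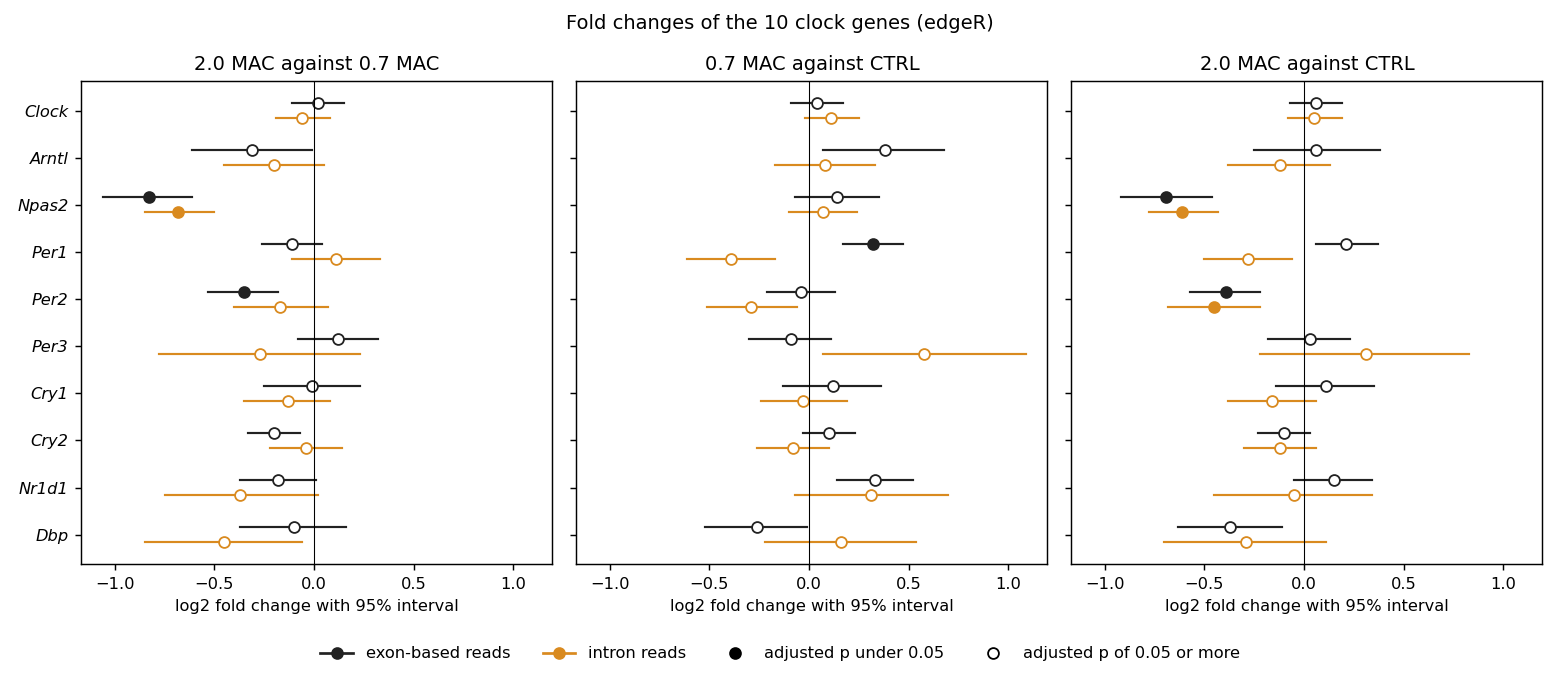
log2 fold changes of the 10 clock genes in exon-based reads (black) and intron reads (orange) for the 3 comparisons, with 95% intervals (normal approximation from the edgeR standard error) and filled points where the adjusted p was under 0.05. Npas2 was at -0.83 and -0.69 in exon-based reads of 2.0 MAC against 0.7 MAC and against CTRL, and Per1 was at 0.32 in exon-based and -0.39 in intron reads of 0.7 MAC against CTRL.

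Of the activators, Npas2, a close relative of Clock that can take its place beside BMAL1 and is best known in mice from the forebrain, had the largest fold changes of the 10 in both comparisons of 2.0 MAC. Its exon-based level was 32.3, 25.2 and 35.3 CPM in CTRL, 34.4, 34.2 and 33.9 CPM in 0.7 MAC and 20.0, 20.0 and 17.7 CPM in 2.0 MAC. The 2.0 MAC libraries lay below all 6 others, and the 0.7 MAC libraries lay within the range of the CTRL libraries. In 2.0 MAC, Npas2 was at 0.561 of its level in 0.7 MAC (log2 fold change -0.83, SE 0.12, adjusted p = 0.000132) and at 0.62 of its level in CTRL (log2 fold change -0.69, SE 0.12, adjusted p = 0.00122). Between 0.7 MAC and CTRL its log2 fold change was 0.14 (95% interval -0.07 to 0.35, adjusted p = 0.584). These calls rest on 197, 160 and 239 raw reads in CTRL, 247, 210 and 221 in 0.7 MAC and 108, 124 and 128 in 2.0 MAC, and both calls of 2.0 MAC held in all 20 alternatives run.

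Intron reads of Npas2, more numerous than its exon-based reads, also fell in 2.0 MAC. Npas2 had 180.4, 151.3 and 154.9 CPM of intron reads in CTRL, 162.8, 158.7 and 189.8 CPM in 0.7 MAC and 105.0, 113.7 and 101.1 CPM in 2.0 MAC, again with no 2.0 MAC library within the range of the others. The intron log2 fold change was -0.68 (SE 0.09, adjusted p = 0.00123) for 2.0 MAC against 0.7 MAC and -0.61 (SE 0.09, adjusted p = 0.00143) for 2.0 MAC against CTRL. The exon-based change minus the intron change was -0.16 (95% interval -0.39 to 0.07, adjusted p = 0.675) and -0.09 (95% interval -0.32 to 0.15, adjusted p = 0.812) in these comparisons, so that no difference between the kinds of read was detected, within those intervals.

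Markers of forebrain regions moved in the same direction as Npas2. Of 11 striatum markers, 11 were lower in 2.0 MAC than in 0.7 MAC libraries and 11 lower than in CTRL libraries, and the list summed to 1186.5 to 1493.4 CPM in CTRL libraries, 896.3 to 1477.6 CPM in 0.7 MAC libraries and 459.0 to 540.5 CPM in 2.0 MAC libraries. Of 11 cortex markers, 10 were lower in 2.0 MAC than in 0.7 MAC libraries and 7 lower than in CTRL libraries, and no marker of either list was at 0 in any group. The dopamine receptor gene Drd1, a marker of striatal neurons, averaged 58.1 ± 3.72 CPM in CTRL libraries, 46.5 ± 15.8 CPM in 0.7 MAC libraries and 14.9 ± 2.05 CPM in 2.0 MAC libraries (SD, n = 3 each). Among the CTRL libraries, replicate 2 had the lowest sums of both lists, 669.5 CPM for cortex and 1186.5 CPM for striatum. It had the lowest Npas2, 25.2 CPM, but the highest Per2, 48.2 CPM. The other groups did not show this order for exon-based reads of Npas2. In 0.7 MAC replicates 1, 2 and 3 the striatum sums were 896.3, 1129.2 and 1477.6 CPM. Exon-based Npas2 differed little there, at 34.4, 34.2 and 33.9 CPM. Its intron reads were 162.8, 158.7 and 189.8 CPM, highest in replicate 3, which also had the highest cortex sum, 1335.5 CPM. In CTRL replicates 1, 2 and 3 intron reads of Npas2 were 180.4, 151.3 and 154.9 CPM. They ranked as the cortex sums of 1207.1, 669.5 and 858.2 CPM. Among the 2.0 MAC libraries, replicate 3 had the highest cortex sum, 462.6 CPM. It had the lowest Npas2, 17.7 CPM in exon-based and 101.1 CPM in intron reads. In the other direction, 5 of 6 tested hindbrain markers and 4 of 6 thalamus markers were higher in 2.0 MAC than in 0.7 MAC libraries. The hindbrain list summed to 211.1 to 291.4 CPM in CTRL, 183.6 to 198.1 CPM in 0.7 MAC and 317.3 to 355.7 CPM in 2.0 MAC libraries, and the thalamus list to 560.7 to 678 CPM, 477.5 to 541.8 CPM and 703.9 to 823.8 CPM in the same order of groups. Of 10 oligodendrocyte markers, 9 were higher in 2.0 MAC than in 0.7 MAC libraries, and the list summed to 9152.7 to 10493.9 CPM in CTRL libraries, 7384.7 to 8728.7 CPM in 0.7 MAC libraries and 9943.9 to 12025.2 CPM in 2.0 MAC libraries. The part of these markers in the values of Npas2 and Per2 was not tested. Over the 9 libraries the genes of at least 1 CPM whose centred log2 CPM lay nearest to that of Npas2 were Prkcb, R3hdm4 and Celf5, with root mean square differences of 0.125, 0.128 and 0.132, beside a median of 0.41 over 14134 genes.

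**Figure D3:**
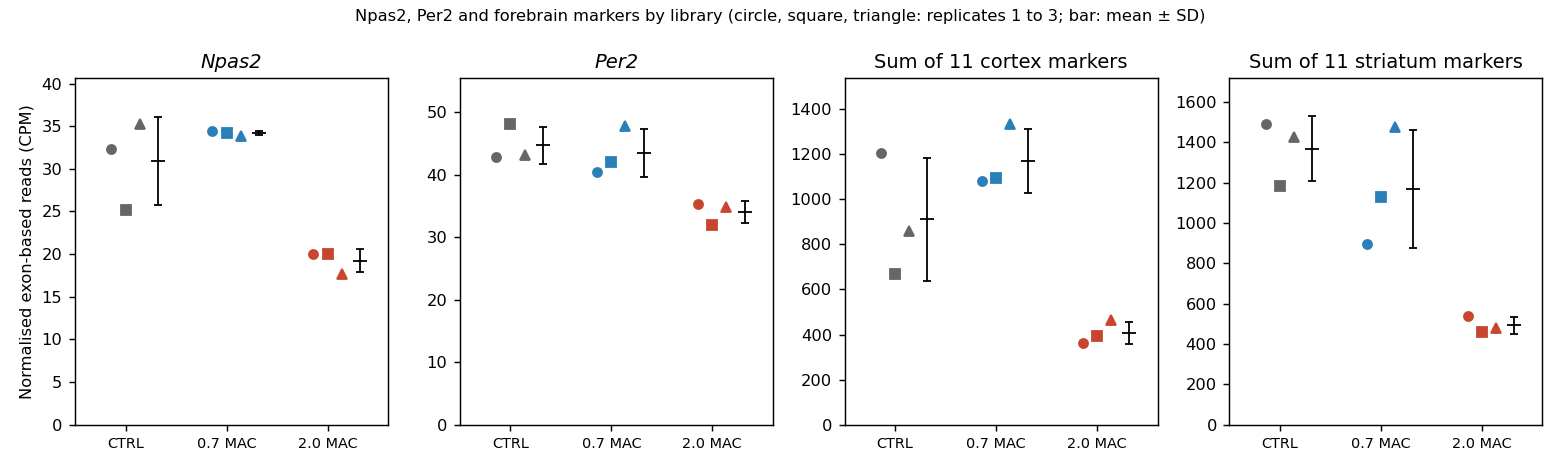
Normalised exon-based reads (CPM, axes from 0) of Npas2 and Per2 beside the summed levels of 11 cortex and 11 striatum markers in the CTRL, 0.7 MAC and 2.0 MAC libraries, each point 1 library, with mean ± SD (n = 3). In all 4 panels the 2.0 MAC libraries lay below every other library, with striatum sums of 459.0 to 540.5 CPM in 2.0 MAC, against at least 896.3 CPM elsewhere.

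The other activators did not pass the test. Clock, the partner of BMAL1 throughout the body, was at 208.7, 217.2 and 186.1 CPM in CTRL, 222.6, 211.8 and 193.5 CPM in 0.7 MAC and 218.5, 214.8 and 204.1 CPM in 2.0 MAC. Its log2 fold change was 0.02 for 2.0 MAC against 0.7 MAC, 0.04 for 0.7 MAC against CTRL and 0.06 for 2.0 MAC against CTRL, and the 3 intervals together spanned -0.11 to 0.19. Arntl, which encodes BMAL1, varied more between libraries, at 27.7, 17.8 and 20.2 CPM in CTRL, 28.8, 30.8 and 25.4 CPM in 0.7 MAC and 17.6, 23.4 and 26.6 CPM in 2.0 MAC. All groups of Arntl overlapped, with a log2 fold change of -0.31 (adjusted p = 0.209) for 2.0 MAC against 0.7 MAC and 0.38 (adjusted p = 0.244) for 0.7 MAC against CTRL.

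Among the repressors, the Per genes did not move together. Per2, a core repressor whose loss shortens and then abolishes the daily rhythm of mice, was at 42.9, 48.2 and 43.1 CPM in CTRL, 40.5, 42.1 and 47.8 CPM in 0.7 MAC and 35.4, 32 and 34.8 CPM in 2.0 MAC. Every 2.0 MAC library lay below every other library. Per2 was at 0.784 of its 0.7 MAC level in 2.0 MAC (log2 fold change -0.35, SE 0.09, adjusted p = 0.0134) and at 0.761 of its CTRL level (log2 fold change -0.39, SE 0.09, adjusted p = 0.01), while between 0.7 MAC and CTRL the log2 fold change was -0.04 (95% interval -0.21 to 0.13). The first call was lost without 0.7 MAC replicate 3 (adjusted p = 0.0665) or without 2.0 MAC replicate 2 (adjusted p = 0.0729), within a range of 0.00544 to 0.101 over 20 alternatives, and the second without 2.0 MAC replicate 2 (adjusted p = 0.0596), within a range of 0.0017 to 0.0615.

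Intron reads of Per2 were 42.4, 38.7 and 43.7 CPM in CTRL, 32.9, 28.7 and 40.6 CPM in 0.7 MAC and 33.9, 27.5 and 29.9 CPM in 2.0 MAC. Here the 2.0 MAC libraries lay below the CTRL libraries and overlapped the 0.7 MAC libraries. The intron change was called between 2.0 MAC and CTRL (log2 fold change -0.45, SE 0.12, adjusted p = 0.0297) and not between 2.0 MAC and 0.7 MAC (log2 fold change -0.17, adjusted p = 0.495) or between 0.7 MAC and CTRL (log2 fold change -0.29, adjusted p = 0.19). That call was lost without CTRL replicate 1 (adjusted p = 0.111), CTRL replicate 3 (0.0951), 2.0 MAC replicate 2 (0.129) or 2.0 MAC replicate 3 (0.104), within a range of 5.23e-05 to 0.129 over 18 alternatives, and that of 0.7 MAC against CTRL passed without 0.7 MAC replicate 3 (-0.44, adjusted p = 0.0258, range 0.0258 to 0.947). The nearest genes to Per2 were Slc35a2, Glcci1 and Svop, at root mean square differences of 0.054, 0.061 and 0.061, beside a median of 0.249 over the same 14134 genes.

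Per1, a repressor induced by outside signals, was the 1 member called higher in 0.7 MAC than in CTRL libraries. Arntl and Nr1d1 had log2 fold changes of 0.38 and 0.33 in that comparison and were not called. Its exon-based level was 87.6, 90.2 and 97.3 CPM in CTRL, 113.8, 106.8 and 124.1 CPM in 0.7 MAC and 112.8, 95.4 and 111.3 CPM in 2.0 MAC. All 0.7 MAC libraries lay above all CTRL libraries, and among the 2.0 MAC libraries replicate 2 fell within the CTRL range. Per1 was at 1.25 times its CTRL level in 0.7 MAC (log2 fold change 0.32, SE 0.08, adjusted p = 0.0419). In 2.0 MAC it was at 1.16 times its CTRL level and missed the threshold (log2 fold change 0.21, SE 0.08, adjusted p = 0.0979), and between 2.0 MAC and 0.7 MAC the log2 fold change was -0.11 (95% interval -0.26 to 0.04), so the 2 sevoflurane groups were not shown to differ. The value of 2.0 MAC against CTRL passed without 2.0 MAC replicate 2 (0.29, adjusted p = 0.0464), within a range of 0.0367 to 0.546 over 20 alternatives. The call of 0.7 MAC against CTRL was near its threshold: it was lost without CTRL replicate 1 (adjusted p = 0.0834), 2 (0.146) or 3 (0.104), without 0.7 MAC replicate 1 (0.117) or 3 (0.073) and without 2.0 MAC replicate 1 (0.0556), within a range of 0.000413 to 0.481 over 20 alternatives, while the log2 fold change in those 6 fits was 0.27 to 0.37. With the 3 libraries of highest cerebellar markers left out, it was 0.43 (adjusted p = 0.0831). The genes nearest to Per1 over the 9 libraries were Klf13, Prkrip1 and Nat10, at root mean square differences of 0.066, 0.073 and 0.083, beside a median of 0.224.

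In intron reads the values of Per1 lay on the other side of CTRL. It had 22.4, 27.7 and 29.1 CPM in CTRL, 18.8, 20.0 and 21.6 CPM in 0.7 MAC and 24.1, 19.8 and 21.4 CPM in 2.0 MAC, with all 0.7 MAC libraries below all CTRL libraries. The intron log2 fold change was -0.39 (SE 0.11, adjusted p = 0.0694) for 0.7 MAC against CTRL and -0.28 (SE 0.11, adjusted p = 0.144) for 2.0 MAC against CTRL, neither called. The first passed without CTRL replicate 1 (-0.50, adjusted p = 0.033) or 0.7 MAC replicate 3 (-0.46, adjusted p = 0.0466), within a range of 0.00704 to 0.557 over 18 alternatives. Counted as raw reads, Per1 had 2.29, 1.88 and 2.00 exon-based reads per intron read in CTRL, 3.63, 3.02 and 3.29 in 0.7 MAC and 2.91, 2.97 and 3.22 in 2.0 MAC. No sevoflurane library of Per1 overlapped a CTRL library in this ratio. Groups did not overlap in the ratio for 4 of the 10 genes between 0.7 MAC and CTRL (Arntl and Per1 higher, Per3 and Dbp lower in 0.7 MAC, beside 16% of all 13023 genes with both kinds of read), for 2 between 2.0 MAC and CTRL (Per1 and Cry1, higher in 2.0 MAC, beside 21.9% of all) and for 2 between 2.0 MAC and 0.7 MAC (Nr1d1 and Dbp, higher in 2.0 MAC, beside 20.2% of all). For Per1 a two-sided exact permutation test on the log2 ratio gave p = 0.1 for each sevoflurane group against CTRL, as it did for each of the other genes and comparisons just named, the smallest p that 3 against 3 libraries allow.

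Across all genes with both kinds of read, the exon-based change of Per1 exceeded its intron change by 0.72 on the log2 scale between 0.7 MAC and CTRL (SE 0.10, adjusted p = 2.69e-05) and by 0.50 between 2.0 MAC and CTRL (SE 0.10, adjusted p = 0.00424). Per1 was the 1 of 10 members called higher in each, beside 1.43% and 1.32% of 13023 tested genes. Both comparisons share the CTRL libraries. Between 2.0 MAC and 0.7 MAC the difference was -0.22 (adjusted p = 0.395), and 0 of the 10 were called by edgeR, with 3 at an unadjusted p under 0.05, beside 1.26% of all tested genes, and 0 by limma, which called 0 of all 13023 genes. For 0.7 MAC against CTRL, 6 of the 10 had an unadjusted edgeR p under 0.05. With limma on the log2 ratio of the kinds of read, Per1 kept values of 0.70 and 0.48 against CTRL and missed the threshold (adjusted p = 0.0893 and 0.149). In those comparisons limma called 1 and 5 of all genes, against 268 and 307 by edgeR. Without 2.0 MAC replicate 3 the second difference was 0.44 (adjusted p = 0.054). Over 15 alternatives its adjusted p was 1.69e-05 to 0.195 for 0.7 MAC and 0.0023 to 0.261 for 2.0 MAC.

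**Figure D4:**
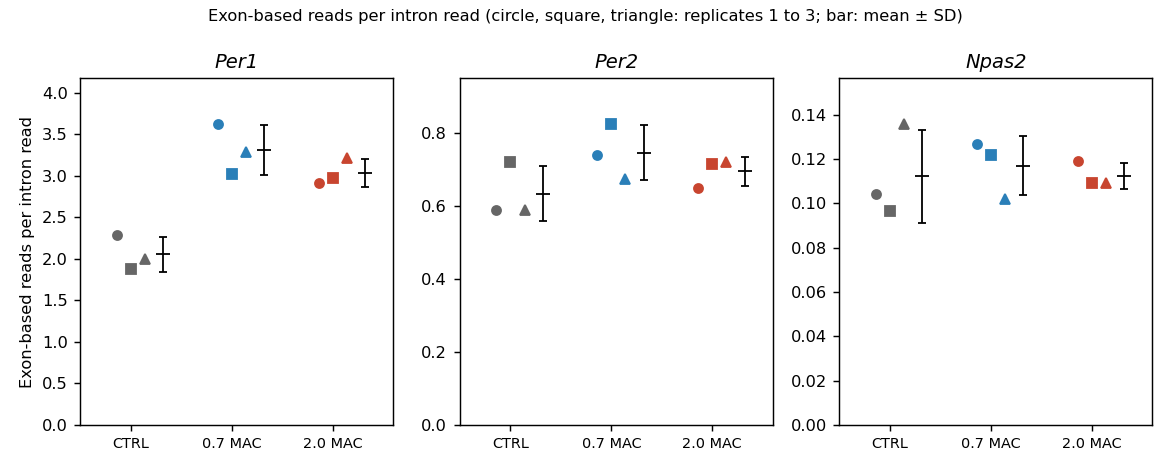
Exon-based reads per intron read, from raw reads on axes that start at 0, for Per1, Per2 and Npas2 in the CTRL, 0.7 MAC and 2.0 MAC libraries, each point 1 library, with mean ± SD (n = 3). Per1 had 1.88 to 2.29 in CTRL libraries, 3.02 to 3.63 in 0.7 MAC libraries and 2.91 to 3.22 in 2.0 MAC libraries, while Per2 and Npas2 overlapped between groups.

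Genes that answer the same kinds of signal as Per1 and Per2 were followed in 2 lists, whose transcripts do not measure the signals themselves. Of 16 glucocorticoid-induced genes, 3 were higher in 0.7 MAC than in CTRL libraries (Cdkn1a, Fkbp5 and Nfkbia), beside 0.884% of all tested genes. In 2.0 MAC, 10 were higher than in CTRL libraries, beside 3.36% of all. In these comparisons 0 were lower, beside 0.743% and 6.42% of all. The median log2 fold change of the list was 0.40 and 0.58, beside 0.00 over all tested genes. Cdkn1a, a cell cycle inhibitor, had log2 fold changes of 1.05 (SE 0.12, adjusted p = 0.000362) for 0.7 MAC against CTRL and 1.34 (SE 0.12, adjusted p = 6.41e-06) for 2.0 MAC against CTRL. Tsc22d3, which encodes the glucocorticoid-induced leucine zipper protein, was higher in 2.0 MAC than in CTRL libraries (log2 fold change 0.63, SE 0.09, adjusted p = 0.000423). Of 12 early genes of neuronal activity and CREB, 2 were higher in 0.7 MAC than in CTRL libraries (Dusp1 and Sik1) and 3 lower (Arc, Egr2 and Npas4). In 2.0 MAC the same 2 were higher than in CTRL libraries and 6 were lower, beside the same shares of all tested genes. Between 2.0 MAC and 0.7 MAC, 0 of the 12 were higher and 3 were lower, with a median log2 fold change of -0.40. Of the 16 glucocorticoid-induced genes, 2 were higher and 1 was lower in that comparison, with a median of 0.14. These counts stand beside 5.98% of all tested genes higher and 8.73% lower. Npas4, a transcription factor induced by activity in neurons, averaged 18 ± 2.38 CPM in CTRL libraries, 8.38 ± 2.09 CPM in 0.7 MAC libraries and 5.43 ± 0.383 CPM in 2.0 MAC libraries. The part of either kind of signal in the values of Per1 and Per2 was not tested. Nor was the part of the forebrain markers, which were lower in 2.0 MAC libraries, in the values of these lists.

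Per3, a Per gene that is dispensable for the rhythm itself in mice, could be measured less well than the others because of its place within Camta1, which encodes a calmodulin-binding transcription activator. Its exon-based reads were 25.4, 29.4 and 29.1 CPM in CTRL, 24.9, 25.1 and 28.8 CPM in 0.7 MAC and 32.1, 27.4 and 26.5 CPM in 2.0 MAC, with all groups overlapping and log2 fold changes of 0.12, -0.09 and 0.03 for 2.0 MAC against 0.7 MAC, 0.7 MAC against CTRL and 2.0 MAC against CTRL. Of the 1057 intron reads listed for Per3, 0 were unique to one gene, and its intron values of 6.68 to 17.1 CPM per library are therefore not evidence on Per3 alone. Camta1 itself had an exon-based log2 fold change of 0.19 (SE 0.05, adjusted p = 0.0145) for 2.0 MAC against 0.7 MAC.

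The Cry genes encode the cryptochromes, the partners of the PER proteins in the repressor complex. Cry1 was at 19.7, 22.7 and 20.1 CPM in CTRL, 23, 22.7 and 22.1 CPM in 0.7 MAC and 24.7, 17.6 and 24.9 CPM in 2.0 MAC. All groups of Cry1 overlapped, and its log2 fold change was -0.01 (95% interval -0.25 to 0.23) for 2.0 MAC against 0.7 MAC. Cry2 was at 118.3, 105.9 and 111.3 CPM in CTRL, 117.0, 112.0 and 129.9 CPM in 0.7 MAC and 102.4, 103.0 and 107.2 CPM in 2.0 MAC. The 2.0 MAC libraries of Cry2 lay below the 0.7 MAC libraries, with a log2 fold change of -0.20 (SE 0.07) that missed the threshold (adjusted p = 0.0567). It passed in 3 of 20 alternatives, without 0.7 MAC replicate 2 (-0.24, adjusted p = 0.0278), without the 3 libraries of highest cerebellar markers (-0.33, adjusted p = 0.0329) and without the low-count filter (-0.20, adjusted p = 0.0484), within a range of 0.0278 to 0.378. Cry2 overlaps an antisense transcript, D930015M05Rik, and 79.8% of its exon reads and 24.1% of its intron reads were unique, so its intron values are uncertain.

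In the second loop, Nr1d1 had 81.7, 70.2 and 87.7 CPM in CTRL, 95.4, 107.6 and 98 CPM in 0.7 MAC and 73.8, 92.5 and 97.9 CPM in 2.0 MAC. Its 0.7 MAC libraries lay above all CTRL libraries, with a log2 fold change of 0.33 (SE 0.10) that did not pass the test (adjusted p = 0.107), and its 2.0 MAC libraries overlapped both other groups. The end of Nr1d1 overlaps by 1075 bases that of Thra, a thyroid hormone receptor gene on the opposite strand. Thra was lower in 2.0 MAC than in 0.7 MAC libraries (log2 fold change -0.35, SE 0.06, adjusted p = 0.00104), and since the sources used here do not state the strand setting of the counting, reads of this stretch cannot be assigned to either gene with certainty. Of the exon reads of Nr1d1, 92.5% were unique to one gene.

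Dbp, the output gene, had 65.2, 68.6 and 88.7 CPM in CTRL, 52.6, 61.0 and 72.5 CPM in 0.7 MAC and 68.3, 50 and 55.2 CPM in 2.0 MAC. All groups overlapped, with CTRL replicate 3 the highest library. The log2 fold change was -0.26 (SE 0.13, adjusted p = 0.36) for 0.7 MAC against CTRL and -0.37 (SE 0.13, adjusted p = 0.1) for 2.0 MAC against CTRL. Dbp shares 737 bases with Sphk2 on the opposite strand, and 80.3% of its exon reads were unique.

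In intron reads as a whole, 1 of the 10 genes was lower in 2.0 MAC than in 0.7 MAC libraries (Npas2), beside 3.81% of 16142 tested genes, and 2 were lower in 2.0 MAC than in CTRL libraries (Npas2 and Per2), beside 5.92% of all. Between 0.7 MAC and CTRL 0 of the 10 were called by edgeR or DESeq2, with 3 at an unadjusted edgeR p under 0.05, beside 4.23% of all tested genes called. Arntl and Dbp, 2 members with uncalled exon-based differences, gave intron log2 fold changes of -0.20 and -0.45 for 2.0 MAC against 0.7 MAC and 0.08 and 0.16 for 0.7 MAC against CTRL. The intron values of Clock and Cry1 spanned log2 fold changes of -0.16 to 0.11 over the 3 comparisons.

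**Figure D5:**
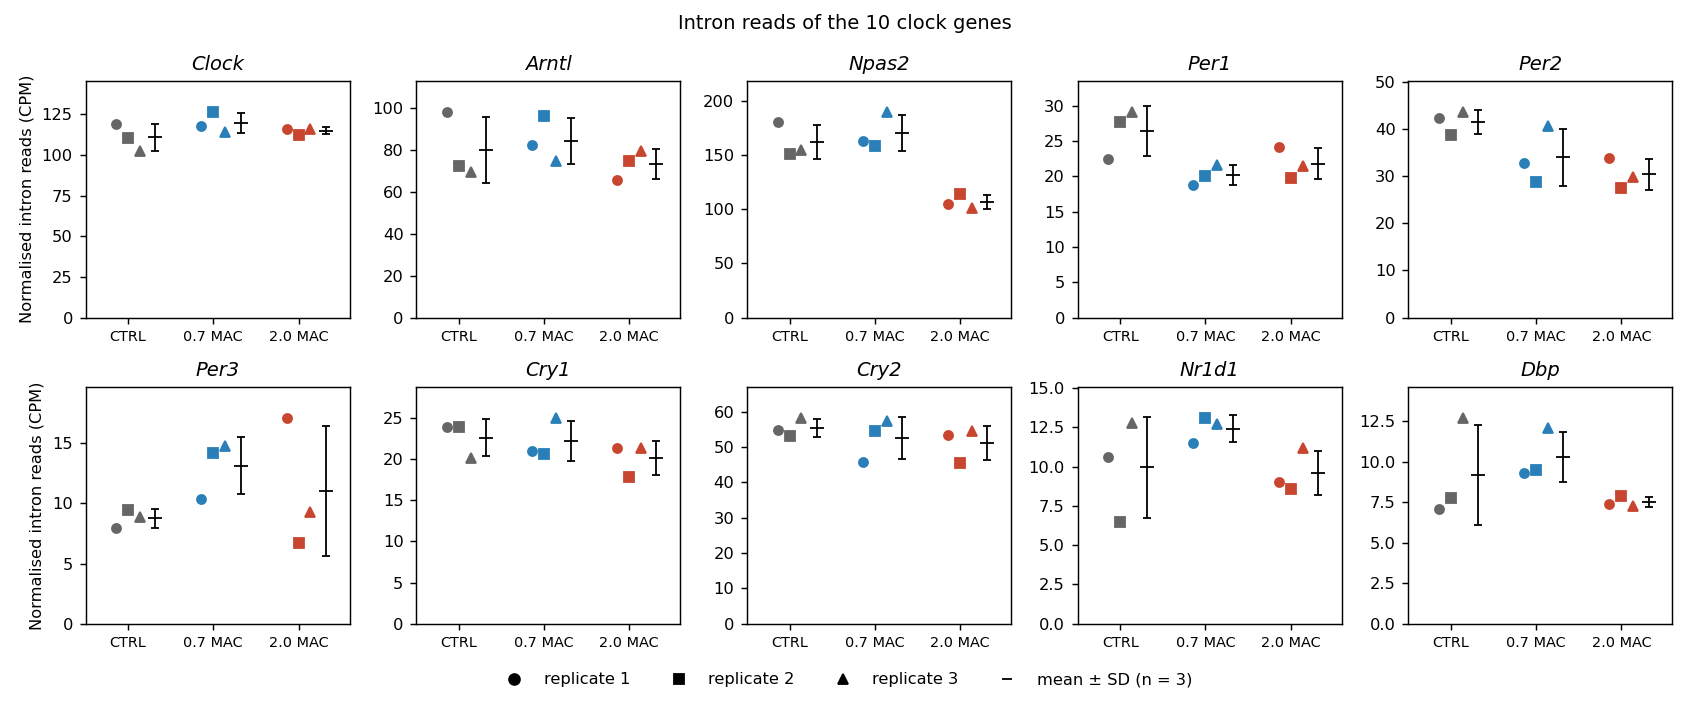
Normalised intron reads (CPM, axes from 0) of the 10 clock genes in the CTRL, 0.7 MAC and 2.0 MAC libraries, each point 1 library, with mean ± SD (n = 3). Npas2 was at 101.1 to 113.7 CPM in 2.0 MAC libraries, against 158.7 to 189.8 CPM in 0.7 MAC libraries, and the Per3 panel holds 0 reads unique to one gene.

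Beyond the 10 members, 25 other clock genes were followed in exon-based reads, and 0 of the 25 were called between 0.7 MAC and CTRL, while 1 was higher and 0 were lower in 2.0 MAC than in CTRL libraries. Between 0.7 MAC and CTRL 4 of the 25 had an unadjusted edgeR p under 0.05 and 0 were called by DESeq2. Their median log2 fold changes were -0.05, 0.00 and -0.04 for 2.0 MAC against 0.7 MAC, 0.7 MAC against CTRL and 2.0 MAC against CTRL. Of 11 other transcription regulators, Bhlhe41, which encodes the E-box repressor DEC2, was the one called: it averaged 119 ± 3.35 CPM in 2.0 MAC libraries and 97.7 ± 7.23 CPM in CTRL libraries (log2 fold change 0.28, SE 0.06, adjusted p = 0.00831). Rora, an activator that competes with REV-ERB alpha, averaged 344 ± 13.3 CPM in CTRL, 341 ± 34.3 CPM in 0.7 MAC and 386 ± 13.8 CPM in 2.0 MAC libraries and was not called. Of 5 other outputs, Tef, a relative of Dbp that binds D-boxes, fell to 292 ± 13 CPM in 2.0 MAC libraries, against 346 ± 30.6 CPM in 0.7 MAC libraries (log2 fold change -0.24, SE 0.06, adjusted p = 0.0105). Hlf, the third of these relatives, averaged 183 ± 11.5 CPM in 2.0 MAC and 197 ± 3.53 CPM in 0.7 MAC libraries and did not pass the test.

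Of the 10 tested markers of the suprachiasmatic nucleus, 2 were higher and 1 was lower in 2.0 MAC than in 0.7 MAC libraries, beside 5.98% and 8.73% of all tested genes. Zfhx3, a transcription factor found in this nucleus, was higher (log2 fold change 0.53, adjusted p = 5.77e-05). It was lower in 0.7 MAC than in CTRL libraries (log2 fold change -0.32, adjusted p = 0.0264). At 237 ± 21.2 CPM in CTRL, 190 ± 10.2 CPM in 0.7 MAC and 275 ± 13.3 CPM in 2.0 MAC libraries, it was far more abundant than Avp and Vip. Avp, the vasopressin gene, was higher at 15.3 ± 1.09 against 8.49 ± 2.68 CPM (log2 fold change 0.83, SE 0.22, adjusted p = 0.0148), and Vip, which encodes the peptide that couples its neurons, was lower at 3.93 ± 0.903 against 7.69 ± 0.665 CPM (log2 fold change -0.98, SE 0.23, adjusted p = 0.00807). Avp and Vip are also expressed elsewhere in the brain, Avp in other hypothalamic nuclei and Vip in cortical interneurons. The cells in which Zfhx3 or any clock gene was measured are not known from these libraries.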

How the data were processed

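RNA was sequenced in 9 libraries (3 CTRL, 3 0.7 MAC, 3 2.0 MAC), grouped by their labels. Per the study's methods, the authors mapped reads to GRCm38/mm10 in CLC Genomics Workbench. Ribosomal RNA was depleted and libraries were directional, details that those methods do not give. The sources used here do not state the annotation release or the strand setting. The deposited counts are whole exon-based reads and intron reads per gene, not normalized, and the deposited RPKM values were scaled by the authors with exon length and depth. Of 198 columns of per-sample values, 130 were not used, nor were 12 columns of the authors' own tests (fold changes and p-values).

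The main test was edgeR 4.0.16 (quasi-likelihood, R 4.3.3) on the deposited counts of all 9 libraries, with genes kept at a minimum count of 10 (filterByExpr), TMM scaling and Benjamini-Hochberg adjustment over all tested genes at 0.05. CPM values use TMM library sizes. SE is the log2 fold change over the root of its F value, and 95% intervals are normal approximations. Exon-based and intron changes were compared by an interaction term with the library as a block. The code was tested on simulated data. Alternatives were DESeq2 1.42.0, limma 3.58.1 (on RPKM with pseudocounts of 0.1 and 1, or on the log2 ratio of exon-based to intron CPM with a prior count of 2), scaling, filters, total gene reads, 6 libraries alone, a replicate block and each library left out. Unique intron reads and leaving out the 3 libraries of highest cerebellar markers were chosen after seeing the data. Same-numbered libraries did not deviate together (correlations of -0.211 to -6.85e-05 over 9 pairs), so no pairing was assumed.

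The members and gene lists were chosen with earlier results of these data known. Named genes are the 10 members, up to 4 genes of each other list with the smallest adjusted p, markers at a defining level, genes overlapping a member, and the 3 genes of at least 1 CPM nearest to each member called in exon-based reads. Results that need certain withheld items are not reported here.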

Additional observations from a re-analysis of the deposited data

How the results depend on the processing

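The calls of Npas2 held in all 20 alternatives for exon-based reads and all 18 for intron reads, in both comparisons of 2.0 MAC. The other counts of called clock genes moved, and the cause was not tested. In exon-based reads, 2 genes were called between 2.0 MAC and 0.7 MAC and 1 (Npas2) with total gene reads or with limma on RPKM at either pseudocount, against 3 (Npas2, Per2 and Cry2) without the filter or with the 3 libraries of highest cerebellar markers left out. Between 0.7 MAC and CTRL, 1 gene (Per1) was called, against 4 without the filter (Arntl, Per1, Nr1d1 and Dbp) and 0 with the 6 libraries alone, a replicate block, total gene reads, limma at either pseudocount, or the 3 libraries of highest cerebellar markers left out. Between 2.0 MAC and CTRL, 2 were called, against 4 without the filter (Npas2, Per1, Per2 and Dbp), 3 with library totals (Per1 added) or the 6 libraries alone (Dbp added), and 1 with limma at either pseudocount. In intron reads, 0 were called between 0.7 MAC and CTRL, against 3 without the filter (Per1, Per2 and Per3) and 1 with unique intron reads (Per1), and 2 between 2.0 MAC and CTRL, against 1 with library totals. For the exon-based minus intron change, 1 was called against CTRL in either sevoflurane group, against 0 with limma on the log2 ratio, with or without a replicate block, and 2 with upper-quartile scaling for 0.7 MAC (Per1 and Per3). The replicate numbers were not shown to pair the libraries, and the block left the counts of 2 in exon-based reads for both comparisons of 2.0 MAC and of 1, 0 and 2 in intron reads for 2.0 MAC against 0.7 MAC, 0.7 MAC against CTRL and 2.0 MAC against CTRL.

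With 1 library left out, the counts in exon-based reads ranged over 1 to 3 between 2.0 MAC and 0.7 MAC, 0 to 1 between 0.7 MAC and CTRL and 2 to 2 between 2.0 MAC and CTRL. The last 2 were Npas2 and Per1 without 2.0 MAC replicate 2, and Npas2 and Per2 without any other library. In intron reads they ranged over 1 to 1, 0 to 2 and 1 to 2, and for the exon-based minus intron change over 0 to 1, 1 to 2 and 0 to 1, in the same order of comparisons. In intron reads between 0.7 MAC and CTRL, Per1 was called without CTRL replicate 1, and Per1 and Per2 without 0.7 MAC replicate 3. For the exon-based minus intron change, Per3 was called without 2.0 MAC replicate 1 between 2.0 MAC and 0.7 MAC, and without 2.0 MAC replicate 1 or 2 between 0.7 MAC and CTRL.

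The log2 fold changes that changed sign were uncalled. Between 2.0 MAC and 0.7 MAC in exon-based reads, Cry1 was at 0.03 with upper-quartile scaling, 0.02 with library totals and 0.07 and 0.05 with limma at pseudocounts of 0.1 and 1, Clock was at -0.01 with total gene reads, and Per3 was at -0.14 with total gene reads and -0.05 and -0.04 with limma. Between 0.7 MAC and CTRL, Per3 was at 0.20 with total gene reads, 0.12 and 0.09 with limma and 0.04 without the 3 libraries of highest cerebellar markers, where Clock was at -0.08, Per2 at 0.09, Arntl at -0.10 in intron reads and the exon-based minus intron change of Npas2 at -0.10, and at 0.05 between 2.0 MAC and 0.7 MAC. Between 2.0 MAC and CTRL, Arntl was at -0.13 with total gene reads and -0.07 without those 3 libraries, and Cry1 at -0.07 with total gene reads. With 1 library left out, exon-based values between 2.0 MAC and 0.7 MAC ranged over -0.03 to 0.07 for Clock, -0.11 to 0.13 for Cry1 and -0.23 to 0.02 for Dbp, between 0.7 MAC and CTRL over -0.02 to 0.09 for Clock and -0.12 to 0.01 for Per2, and between 2.0 MAC and CTRL over 0.00 to 0.11 for Clock, -0.08 to 0.26 for Arntl and -0.05 to 0.09 for Per3. Intron values ranged between 0.7 MAC and CTRL over -0.03 to 0.24 for Arntl, -0.02 to 0.15 for Npas2 and 0.00 to 0.46 for Dbp, and between 2.0 MAC and CTRL over -0.21 to 0.05 for Arntl and -0.44 to 0.02 for Dbp. The exon-based minus intron change ranged over -0.01 to 0.22 for Npas2 between 0.7 MAC and CTRL, and between 2.0 MAC and CTRL over -0.17 to 0.05 for Npas2, -0.01 to 0.17 for Per2 and -0.25 to 0.03 for Dbp. Depth limits the members of few reads. Exon-based reads per library were 95 to 207 for Arntl, 109 to 180 for Cry1, 154 to 197 for Per3 and 108 to 247 for Npas2.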
